A study of Homo sapiens with 4 samples.

Results

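The EGR, FOS and JUN genes encode immediate early transcription factors, and 10 of them were examined here: EGR1, EGR2, EGR3, FOS, FOSB, FOSL1, FOSL2, JUN, JUNB and JUND. Their probes were found through the RefSeq accession that the array design gives for each probe. Of the 10 genes, 9 had a matched probe, with 13 probes among the 41000 on the array, and JUND had none matched. RNA came from parental SkBr3 and BT474 cells, which are breast cancer lines with amplified HER2, and from 1 lapatinib-resistant clone of each line. Parental cells were labelled as treated with vehicle. The clones were grown under lapatinib, a tyrosine kinase inhibitor of EGFR and HER2, at concentrations raised stepwise up to 1 μM. They are called SkBr3/Lap#6 and BT474/Lap#3 after the study, whereas in the sample labels the SkBr3 clone has number 3 and the BT474 clone number 6. Each condition had 1 array, so no change within a cell line could be tested against replicates, and each clone stands for itself only.

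Immediate early genes are transcribed within minutes of a growth signal, without new protein synthesis. Receptors such as EGFR and HER2 activate the kinase ERK, which phosphorylates ELK proteins bound together with SRF at CArG boxes in their promoters. EGR proteins are zinc finger factors that bind GC-rich sites and induce their own co-repressor NAB2. FOS and JUN proteins are leucine zipper factors that pair with each other as AP-1, and JUN proteins also pair among themselves. FOS, FOSB and EGR1 are known for brief peaks of RNA, and FOSL1 and FOSL2 for slower and longer ones.

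In RefSeq (GRCh38.p14) EGR1 spans chr5:138465479-138469303, FOS chr14:75278828-75282230 and JUN chr1:58780791-58784047. The promoters of EGR1 and FOS are shown because these genes changed in opposite directions in both clones, and that of JUN because it was called in SkBr3/Lap#6 alone. The sequences are the 250 bases before the gene start in RefSeq (GRCh38.p14), written 5′ to 3′ along the gene's strand. Capitals mark matches on either strand to a CArG box, to the EGR site GCGNGGGCG, to the AP-1 site TGANTCA or to the cAMP response element TGACGTCA.
EGR1, chr5:138465229-138465478, plus strand: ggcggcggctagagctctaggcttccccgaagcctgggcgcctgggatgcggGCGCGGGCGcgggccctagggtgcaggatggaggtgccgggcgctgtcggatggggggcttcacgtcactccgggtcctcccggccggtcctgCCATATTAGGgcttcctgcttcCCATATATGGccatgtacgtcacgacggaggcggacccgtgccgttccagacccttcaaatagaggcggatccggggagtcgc
FOS, chr14:75278578-75278827, plus strand: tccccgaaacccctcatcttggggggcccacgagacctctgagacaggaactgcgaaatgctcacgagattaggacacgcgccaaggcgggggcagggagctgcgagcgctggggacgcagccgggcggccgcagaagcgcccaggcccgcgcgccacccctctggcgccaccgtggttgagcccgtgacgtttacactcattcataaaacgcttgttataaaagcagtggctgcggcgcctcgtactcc
JUN, chr1:58784048-58784297, minus strand: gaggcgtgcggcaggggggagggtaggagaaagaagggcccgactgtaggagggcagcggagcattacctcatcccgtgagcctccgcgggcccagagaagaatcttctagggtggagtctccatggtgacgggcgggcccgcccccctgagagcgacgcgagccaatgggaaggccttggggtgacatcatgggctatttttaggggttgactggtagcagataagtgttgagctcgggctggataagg

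The EGR1 window held 2 CArG boxes, ending 96 and 74 bases before the start, and 1 EGR site, and these matches did not overlap. CArG boxes were found in 1.16% of the 35116 promoter windows of this length, EGR sites in 8.41%, AP-1 sites in 6.57% and cAMP response elements in 1.65%. The FOS and JUN windows held none of the 4 motifs, which says only that these letters do not occur in this window. Of the 10 windows listed for 8 of the genes, 1 other had a CArG box, for one of the starts of EGR2, and 1 had a cAMP response element, for JUND.

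Signals are given as the processed signal, which is the spot intensity after background subtraction on a linear scale. Fold changes were computed after dividing each array by the 75th percentile of its probes, which lay between 1115 and 2074 and was higher on each clone array than on that of its parent. The scanner software marks signals that are well above background, and the lowest so marked lay between 13.3 and 16.01 on the 4 arrays. The luminal epithelial genes KRT8, KRT18, KRT19 and EPCAM, the receptor gene ERBB2 and GRB7 were well above background on all 4 arrays. The epithelial cadherin gene CDH1 was so in the BT474 pair and in neither SkBr3 sample. In SkBr3/Lap#6, ERBB2 was 3.74-fold and GRB7 2.29-fold lower (2 of 6 luminal markers, beside 13.5% of all genes). In BT474/Lap#3, 0 of 7 changed by 2-fold or more, beside 8.56% higher and 5.89% lower over all genes. Among markers of other cell types, PTPRC, DCN, LUM and KDR were not well above background on any array, and CD3E, CD68, CD14 and VWF were on all 4. COL3A1, PDGFRB and PECAM1 were above background in SkBr3/Lap#6 but not in SkBr3, as PECAM1 and LYZ were in BT474/Lap#3 but not in BT474, and CDH5 was above it in both SkBr3 samples. The part of these markers in the values below was not tested. The array of SkBr3/Lap#6 was on a slide of its own, so slide and resistance cannot be told apart in that line, whereas the BT474 pair shared a slide.

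By their brightest probe, 7 of the 9 genes exceeded background clearly on all 4 arrays, and these were the genes measured in both clones. At a threshold of 2-fold, EGR1 was lower and FOS was higher in both clones. In SkBr3/Lap#6, JUN was also higher, and FOSB and FOSL1 were lower. This made 2 of 7 genes higher, beside 12.7% of the 13554 named genes above background in the SkBr3 pair, and 3 of 7 lower, beside 13.5%. In BT474/Lap#3, 1 of 9 genes was higher, beside 8.56% of 13486 genes, and 1 of 9 was lower, beside 5.89%. Among 12716 genes that could be called in both clones, 2.41% were higher in both, as FOS was, and 1.3% were lower in both, as EGR1 was. With 7 to 9 genes, these counts only describe the family. In RNA from whole cultures, fewer cells of a kind and less RNA per cell cannot be told apart.

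**Figure D1:**
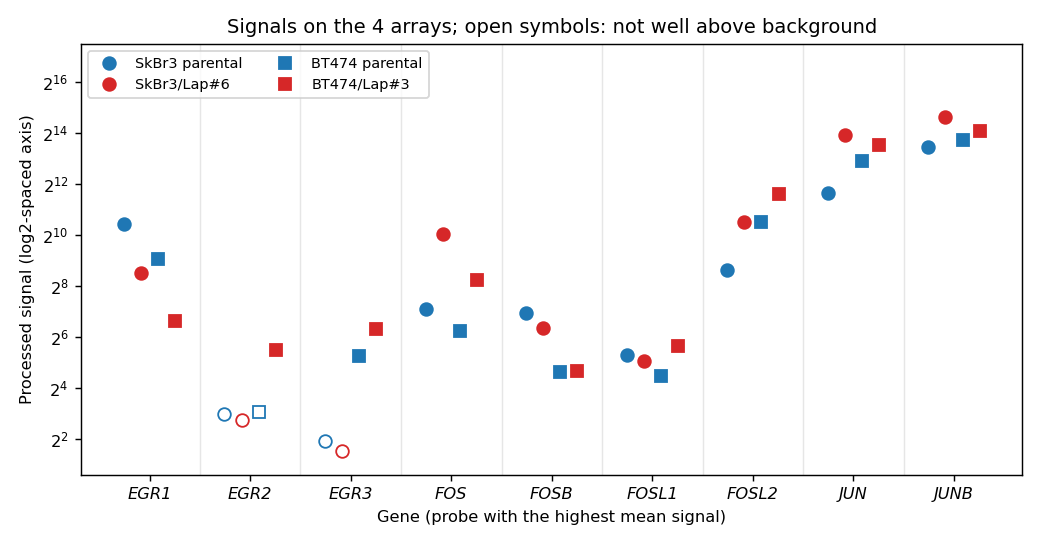
Processed signal (vertical axis, spaced by log2) of the brightest probe of each gene on the 4 arrays; circles are SkBr3 and squares BT474, blue is parental and red the resistant clone, and open symbols were not well above background. EGR1 is lower in each clone than in its parent and FOS is higher, while EGR2 and EGR3 are at background in both SkBr3 samples. Signals of different genes come from different probes and cannot be ranked against each other.

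EGR1, the zinc finger factor most often used as a readout of ERK signaling, had a signal of 1374 in SkBr3 and 362 in SkBr3/Lap#6. In BT474 its signal was 532, and in BT474/Lap#3 it was 99.3. Each clone was thus below its parent even before scaling, although the clone arrays were brighter as a whole. The log2 fold changes were -2.82 in SkBr3/Lap#6 and -2.96 in BT474/Lap#3, which are 7.05-fold and 7.77-fold lower levels. The level was 2.69-fold higher in SkBr3 than in BT474, and 2.96-fold higher in SkBr3/Lap#6 than in BT474/Lap#3, so the order of the lines was the same before and after selection. When the 11491 genes well above background on all 4 arrays were ordered by the smaller of their decreases in the clones, EGR1 was at position 5.

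EGR2 and EGR3, which bind the same kind of site as EGR1, were detected in part of the samples. EGR2 was above background only in BT474/Lap#3, with a signal of 44.7 beside 8.35 in BT474, 7.81 in SkBr3 and 6.62 in SkBr3/Lap#6. This was at least 1.93-fold higher than in BT474, a bound just under the threshold. EGR3 had signals of 38.3 in BT474 and 78.6 in BT474/Lap#3, which after scaling is 1.41-fold higher. Its signals of 3.76 in SkBr3 and 2.84 in SkBr3/Lap#6 were not well above background, and it was at least 2.30-fold higher in BT474 than in SkBr3 and at least 7.29-fold higher in the BT474 clone than in the SkBr3 clone. No fold change can be given for either gene in the SkBr3 pair. In BT474/Lap#3, the low level of EGR1 was therefore not shared by EGR2 or EGR3, which had higher values in the clone than in the parent. The change of EGR3 was under 2-fold. For EGR2 only the lower bound was, so its change may be larger.

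FOS, the founding partner of JUN in AP-1, changed in the other direction. Its signal was 138 in SkBr3 and 1064 in SkBr3/Lap#6, and 75.9 in BT474 and 303 in BT474/Lap#3. Both clones were above both parental cell lines. The log2 fold changes were 2.05, or 4.13-fold, in SkBr3/Lap#6 and 1.46, or 2.75-fold, in BT474/Lap#3. By the smaller of its increases in the clones, FOS was at position 89 among the 11491 genes. The parental lines differed by 1.90-fold, under the threshold, and the clones by 2.85-fold.

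The change of FOS relative to that of EGR1 does not depend on a constant factor between arrays, since both are read on the same array. On the log2 scale, FOS changed by 4.86 more than EGR1 in SkBr3/Lap#6 and by 4.42 more in BT474/Lap#3. Across the 8 ways of computing the values, this difference was 3.98 to 4.86 in SkBr3/Lap#6 and 3.13 to 4.49 in BT474/Lap#3. The lowest values came after normexp background correction followed by quantile normalization, called normexp correction from here on. Besides normexp correction, only quantile normalization and adding 16 before taking logs moved the difference. The other ways left it at 4.86 and 4.42, since a constant shift cancels and neither gene had outlier spots. Under each of the 8 ways, EGR1 stayed at least 2-fold lower in both clones. FOS stayed at least 2-fold higher in SkBr3/Lap#6, whereas in BT474/Lap#3 its log2 fold change was 0.88 after normexp correction.

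**Figure D2:**
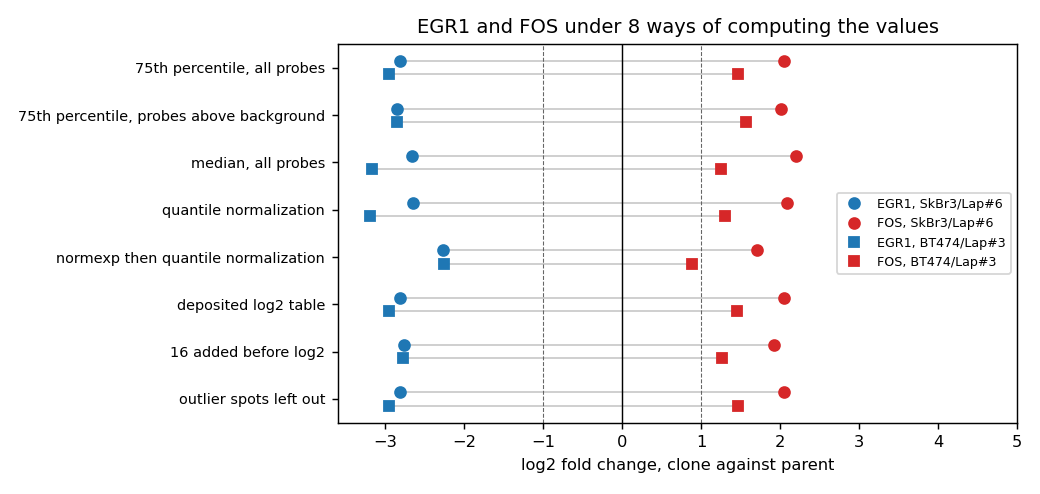
log2 fold change (horizontal axis) of EGR1 in blue and FOS in red, under 8 ways of scaling or correcting the signals; circles are SkBr3/Lap#6 against SkBr3 and squares BT474/Lap#3 against BT474, with dashed lines at 2-fold. EGR1 lies between -2.25 and -3.20 in every case, and FOS between 0.88 and 2.20.

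The other FOS family genes differed between the lines. FOSB, which like FOS carries a strong activation domain, had a signal of 122 in SkBr3 and 80.9 in SkBr3/Lap#6, and of 24.8 in BT474 and 25.5 in BT474/Lap#3. Its log2 fold changes were -1.49 and -0.50. In SkBr3/Lap#6 the unscaled ratio was 0.662, whereas the scaled value was 2.81-fold lower, and after normexp correction and quantile normalization the log2 fold change was -0.73. The level of FOSB was 5.12-fold higher in SkBr3 than in BT474, and 2.57-fold higher in the SkBr3 clone than in the BT474 clone. Its signals in the BT474 pair were near the background limit.

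FOSL1 encodes Fra-1, a FOS protein without that activation domain. Its brighter probe had signals of 38.6 in SkBr3 and 33.2 in SkBr3/Lap#6, and of 22.1 in BT474 and 50.3 in BT474/Lap#3. All 4 were near the background limit, and the other FOSL1 probe was not well above background on any array. The log2 fold changes were -1.11 in SkBr3/Lap#6 and 0.65 in BT474/Lap#3. The first passed the threshold with the main scaling, but not when the median was used (-0.96), after quantile normalization (-0.996) or after normexp correction (-0.39). A change of FOSL1 in SkBr3/Lap#6 thus depended on the processing.

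FOSL2 encodes the related protein Fra-2, and its 3 probes gave the same order of samples. The brightest had a signal of 395 in SkBr3 and of 1456 in its clone, against 1468 in BT474 and 3151 in the clone of that line. The log2 fold changes of the 3 probes were 0.99, 0.77 and 1.48 in SkBr3/Lap#6 and 0.56, 0.36 and 0.50 in BT474/Lap#3. Every probe was higher in the clone than in the parent, but the probe with 1.48 alone passed 2-fold, and the gene was not counted as called. This turned on the processing, since FOSL2 passed 2-fold in SkBr3/Lap#6 with scaling by the median (1.14) and with the mean over its probes (1.08). The clearest difference was between the lines, with BT474 above SkBr3 by 3.36-fold to 5.16-fold over the 3 probes and BT474/Lap#3 above SkBr3/Lap#6 by 2.53-fold to 2.67-fold.

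**Figure D3:**
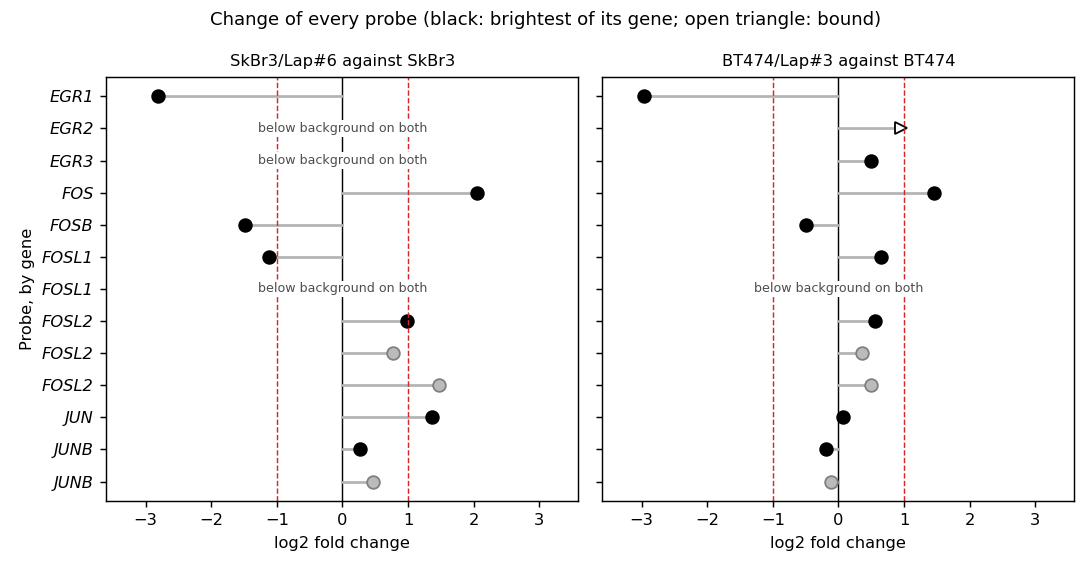
log2 fold change (horizontal axis) of each of the 13 probes, ordered by gene, in SkBr3/Lap#6 (left) and BT474/Lap#3 (right); black points are the brightest probe of a gene, gray points its other probes, the open triangle a lower bound, and dashed lines mark 2-fold. EGR1 and FOS pass the lines on opposite sides in both panels, and the 3 FOSL2 probes are all to the right of 0.

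JUN, the main partner of FOS, was spotted 10 times on each array. Its signal was 3205 in SkBr3, with spots from 2877 to 3286, and 15436 in SkBr3/Lap#6, with spots from 13598 to 16570. In BT474 it was 7776, with spots from 7380 to 8331, and in BT474/Lap#3 it was 11843, with spots from 11439 to 12712. The spots of SkBr3 were below those of the other arrays, and the SD among the spots of an array was 0.04 to 0.07 on the log2 scale. This SD covers the spread within an array and not that between cultures. The log2 fold change was 1.37, or 2.59-fold higher, in SkBr3/Lap#6, and 0.07 in BT474/Lap#3, where it was -0.14 with scaling by the median. After scaling, JUN was 2.33-fold lower in SkBr3 than in BT474, whereas the clones differed by 1.06-fold.

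JUNB, a JUN protein that is a weaker activator, was bright on all arrays. Its brighter probe had a signal of 11375 in SkBr3 and of 25445 in its clone, against 13732 in BT474 and 17392 in the clone of that line. After scaling the 4 samples lay within 1.20-fold of each other, and the log2 fold changes were 0.27 and -0.20. The dimmer probe gave 0.47 and -0.11, with the same signs. No fold change of either probe reached 2-fold.

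**Figure D4:**
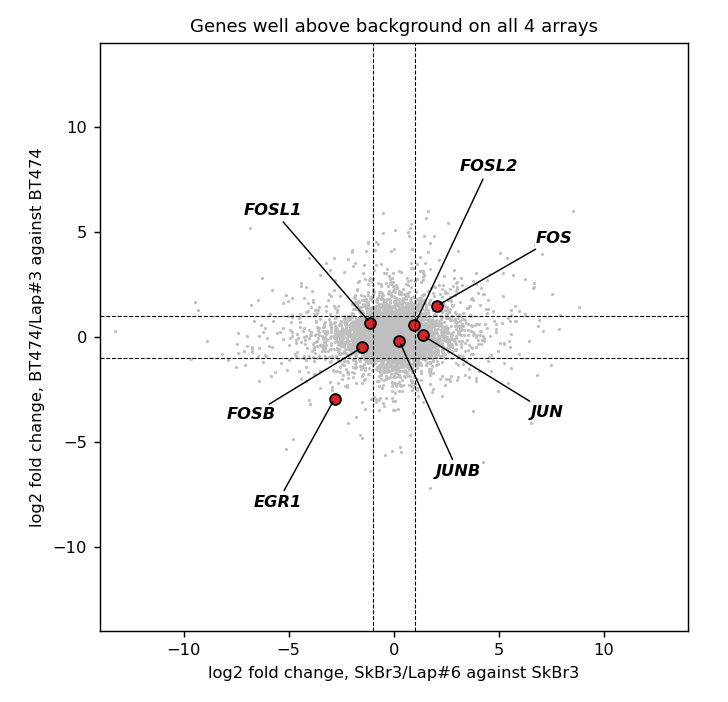
log2 fold change in SkBr3/Lap#6 (horizontal axis) and BT474/Lap#3 (vertical axis) for the 11491 genes well above background on all 4 arrays (gray), with the 7 EGR, FOS and JUN genes measured there in red and dashed lines at 2-fold. EGR1 is in the lower left field and FOS in the upper right; JUN, FOSB and FOSL1 pass the lines on the SkBr3/Lap#6 axis only.

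Between the parental lines, 8 members could be called. EGR1 and FOSB were at least 2-fold higher in SkBr3 than in BT474 (2 of 8, beside 18.4% of 13188 genes), and EGR3, FOSL2 and JUN were lower (3 of 8, beside 19.0%). Between the clones, 9 members could be called. EGR1, FOS and FOSB were higher in the SkBr3 clone (3 of 9, beside 22.2% of 14160 genes), and EGR2, EGR3 and FOSL2 were lower (3 of 9, beside 23.9%). FOS joined the genes higher in SkBr3, JUN left those higher in BT474, and EGR1, EGR3, FOSB and FOSL2 were called in the same direction in both comparisons.

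A limma model of resistance and cell line over the 4 arrays had 1 residual degree of freedom, with each line serving as a repeat of the other. After Benjamini-Hochberg adjustment, 0 of 25927 probes (0.0%) passed 0.05, and 900 (3.47%) had an unadjusted p under that value. The probes tested had a signal of at least 100 on 1 or more arrays, which kept 9 probes of 6 member genes and left out EGR2, EGR3 and FOSL1. EGR1 had a mean log2 change of -2.89 ± 0.42 (SE), with an unadjusted p of 0.0037 and an adjusted p of 1.00 in limma. FOS had 1.75 ± 0.44 (SE), with an unadjusted p of 0.022 and an adjusted p of 1.00. The other members had unadjusted p values of 0.12 to 0.94 in limma.

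Genes around the family were counted from lists chosen for their roles. One list held SRF, its ELK partners and the coactivators MRTFA and MRTFB. In SkBr3/Lap#6, 2 of 6 were at least 2-fold higher, beside 12.7% of all genes, namely MRTFA (log2 2.07) and ELK4 (1.41). In BT474/Lap#3, 0 of 4 measured were called, beside 8.56% higher and 5.89% lower over all genes. NAB2, the EGR co-repressor, had log2 fold changes of -0.16 and -0.34 beside the low EGR1, and NAB1 had -0.17 and 1.62. Among 12 other partners of AP-1, 3 of 11 above background were at least 2-fold higher in SkBr3/Lap#6, beside 12.7% of all genes, and 1 of 11 in BT474/Lap#3, near the 8.56% of all genes. Called lower were 0 of 11 in each clone, beside 13.5% of all genes in SkBr3/Lap#6 and 5.89% in BT474/Lap#3. With so few genes, these counts only describe the lists.

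Of 24 other immediate early genes, 22 could be called in SkBr3/Lap#6. There, 6 were at least 2-fold higher and 1 was lower, beside 12.7% and 13.5% of all genes. Their median log2 fold change was 0.61 beside -0.10 for all named genes. In BT474/Lap#3, 3 of 23 were higher and 2 lower, near the 8.56% and 5.89% of all genes. The median in that clone was -0.02 beside -0.10. KLF2, a zinc finger factor, was lower in both clones as EGR1 was, by 21.7-fold and 4.01-fold. SGK1, a kinase gene, was higher in both, by 24.1-fold and 7.98-fold. NR4A1, an orphan nuclear receptor gene, was 3.94-fold lower in BT474/Lap#3 and had a log2 fold change of -0.25 in SkBr3/Lap#6. DUSP1, an ERK and p38 phosphatase gene, was 3.75-fold higher in SkBr3/Lap#6 and had a log2 fold change of -0.51 in BT474/Lap#3.

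The feedback genes of ERK signaling, which like EGR1 are known to depend on active ERK, had different counts in the clones. In BT474/Lap#3, 7 of 11 were at least 2-fold lower and 0 higher, with a median log2 fold change of -1.87, beside 5.89% lower, 8.56% higher and a median of -0.10 over all named genes. In SkBr3/Lap#6, 1 of 10 was lower and 4 were higher, with a median of 0.63, beside 13.5%, 12.7% and -0.10. DUSP6, a phosphatase of ERK, was 4.22-fold lower in BT474/Lap#3 but 2.45-fold higher in the SkBr3 clone, whereas SPRY4 was 3.73-fold and 3.82-fold lower. EGR1 was thus low beside lower feedback genes in BT474/Lap#3, and low beside several higher ones in SkBr3/Lap#6. The difference between the clones was not tested.

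Genes known to respond to AP-1 were counted beside FOS and JUN. In SkBr3/Lap#6, 6 of 12 were at least 2-fold higher, beside 12.7% of all genes, among them the adhesion receptor gene CD44 (86.5-fold) and the urokinase receptor gene PLAUR (24.8-fold), while the protease gene PLAU was 32.5-fold lower. In BT474/Lap#3, 1 of 8 was higher and 1 lower, beside 8.56% and 5.89%, namely MMP1, at least 2.58-fold higher, and TIMP1, at least 8.51-fold lower. Of genes known to respond to EGR proteins, 2 of 8 were higher and 2 lower in SkBr3/Lap#6, and 2 of 8 were higher and 1 lower in BT474/Lap#3. Over all genes the shares were 12.7% higher and 13.5% lower, and 8.56% higher and 5.89% lower, and with 8 genes these counts do not set the list apart. THBS1 was higher in both, by 4.04-fold and 2.37-fold, and F3 was 3.95-fold lower in the SkBr3 clone but 2.98-fold higher in that of BT474. The other gene higher in SkBr3/Lap#6 was PDGFA, by 47.7-fold, with signals of 26.5 in SkBr3 and 2349 in its clone. In BT474/Lap#3 the log2 fold change of PDGFA was 0.12. The mesenchymal markers COL3A1 and PDGFRB also came above background in SkBr3/Lap#6, with signals of 347 and 64.8, and the other 3 of 5 fibroblast markers did not. The summed signal of the fibroblast markers was 23.0 in SkBr3 and 431 in its clone, and 21.8 and 20.5 in the BT474 pair. Their part in these changes was not tested.

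**Figure D5:**
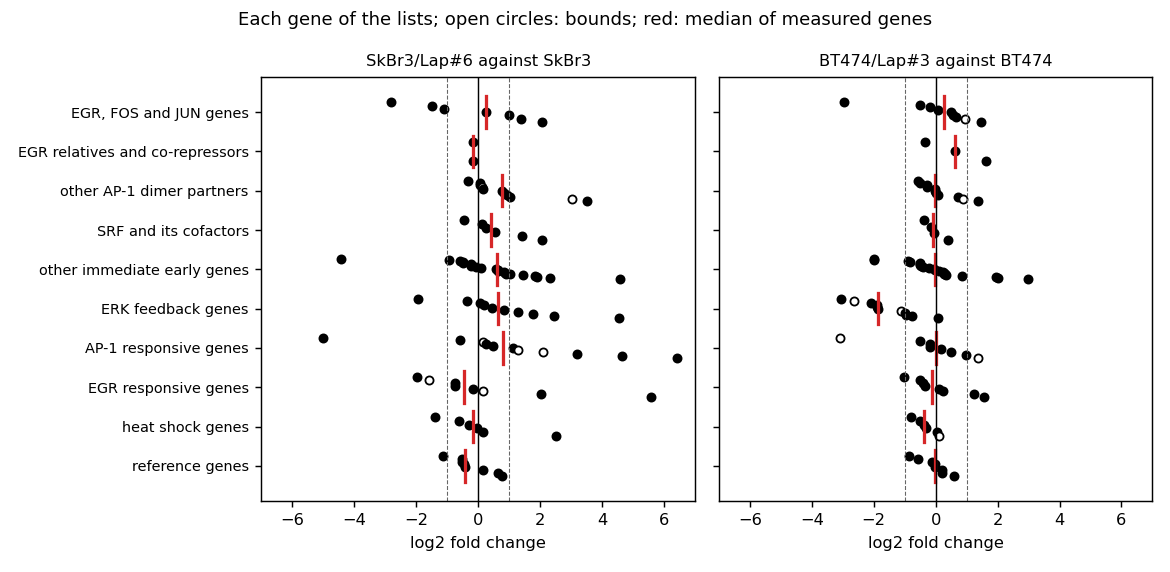
log2 fold change (horizontal axis) of each gene of the lists in SkBr3/Lap#6 (left) and BT474/Lap#3 (right); filled circles were measured on both arrays of the pair, open circles are bounds, red bars are medians of the measured genes, and dashed lines mark 2-fold. The ERK feedback genes lie mostly left of the lines in BT474/Lap#3 only. In SkBr3/Lap#6 the AP-1 responsive genes reach farthest to either side, from PLAU (-5.02) to CD44 (6.43).

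The genes whose 4 values were most like those of a member were found among the 11491 genes, after each gene was centered on its own mean. The distance is the root of the summed squared differences over the 4 scaled log2 values. Closest to FOS were KCNH2, a potassium channel gene (distance 0.25), NR3C2, the mineralocorticoid receptor gene (0.26), and MAP3K14, the gene of NF-κB-inducing kinase (0.26). MAP3K14 had a signal of 610 in SkBr3 and 5905 in its clone, and of 401 in BT474 and 1639 in its clone. Closest to EGR1 was PLCH1, a phospholipase C gene (0.53), followed at more distance by GGTLC2 (1.08) and CAMP (1.12). PLCH1 had signals of 520, 151, 162 and 50.6 in the same order. JUN was closest to COX15 (0.13), TBC1D14 (0.15) and OTULIN (0.17), and FOSL1 to ZDHHC21 (0.11), KCTD3 (0.11) and SETD2 (0.12).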

How the data were processed

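RNA of 4 cell samples was hybridized to Agilent 4 × 44 K arrays, 1 array per sample and 43376 spots for 41000 probes each. The authors deposited scanner files of Feature Extraction 10.1.1.1, in 1 channel, whose processed signal per spot is a background-subtracted and detrended intensity, with median pixel intensities and flags of 0 or 1, which mark other properties of a spot. The methods name another software version and LOWESS normalization, which 1-channel files cannot show. The authors also deposited log2 values per probe. Their differences between clone and parent were compared with those of the processed signals after removing the median offset of each pair. The deviations left were within 0.01 for 99.9% of probes. How that table was scaled and centered is not given in the sources used here, and the medians of its columns were 0.12 for SkBr3, -0.20 for its clone, 0.11 for BT474 and -0.05 for its clone.

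Spots of the same probe were averaged as log2 signals, and the 75th percentile of the array was subtracted. Probes were named through RefSeq accessions (GRCh38.p14), which matched 23680 probes to 16422 genes. A gene was represented by its probe with the highest mean, and the other probes of a member were also reported. A probe was well above background if the mark was set on 50% of its spots or more. Where 1 of a pair of signals was not, it was raised to the lowest signal so marked on that array and the fold is a bound. Where neither was, no fold is given. No spot was saturated. The number of arrays limits the precision. Genes were called at 2-fold, without a test, and limma 3.58.1 in R 4.3.3 was fitted across all probes with a signal of at least 100 on 1 or more arrays. Python 3.11.15, numpy 2.4.6 and pandas 2.3.3 were used otherwise. Alternatives were other scalings, normexp correction of median pixel intensities (offset 50) followed by quantile normalization, the log2 values as deposited, 16 added before taking logs, outlier spots left out, all probes of a gene averaged, a threshold of 3-fold, other filters, and limma without a cell line term or with the slide in its place. The script for the calls and for limma was tested on simulated data. The genes named are all members, genes of the lists, and for 4 members the 3 genes nearest by distance. The members and lists were chosen with earlier results of these data known. ATF3, NAB2 and TGFB1 each stand on more than 1 list. Some genes of the lists are counted but not reported here by name.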

Additional observations from a re-analysis of the deposited data

Results flagged for a closer look

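The log2 fold change of FOSL1 was -1.11 in SkBr3/Lap#6 but 0.65 in BT474/Lap#3, values of opposite sign. The second was under 2-fold, and the first was under 2-fold in 3 of 8 alternatives. With 1 array per condition the difference between the lines was not tested. The 4 signals were 22.1 to 50.3, near the background limit, and the other FOSL1 probe was not well above background on any array.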

How the results depend on the processing

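No paired analysis was possible because each group holds 1 array, as far as a block by replicate number is concerned. The limma model with a cell line term did set each clone against its own parent, with 1 residual degree of freedom. The count of lower members in SkBr3/Lap#6 went from 3 to 1 after normexp correction, and to 1 at 3-fold, with EGR1 left each time. The count of higher members in SkBr3/Lap#6 went from 2 to 1 at 3-fold, with FOS left. In BT474/Lap#3 the count of higher members went from 1 to 2 when the percentile was computed from probes clearly above background, by EGR2, and to 0 after normexp correction and at 3-fold. The other 30 of 36 alternative counts stayed within 1.5 times the main count. Of 128 alternative log2 fold changes of members, 119 kept sign and side of 2-fold, 5 dropped under it and 3 passed it. The remaining 1, that of JUN in BT474/Lap#3, changed sign (-0.14 with scaling by the median). Many of these alternatives could hardly differ from the main value, so the tallies overstate the check. No member probe had an outlier spot, and the deposited values nearly repeated the main ones. Averaging over probes changed nothing for genes with 1 usable probe. The same limits hold for the alternative counts. Limma called 0 probes under all 10 alternatives. Its unadjusted p values below 0.05 ranged from 308 of 25927 probes (1.19%) without a cell line term to 2043 of 41000 (4.98%) without the filter on low signals.

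Scaling by the median moved the median of all named genes in the SkBr3 clone from -0.10 to 0.05, and in the BT474 clone from -0.10 to -0.31. The share of higher among called genes then went from 48.4% to 57.9% and from 59.3% to 42.7%, and with the percentile over probes above background it was 67.4% in the BT474 clone. Of 92 alternative list medians 11 changed sign. With the percentile over probes well above background these were, in BT474/Lap#3, 0.10 for AP-1 partners, 0.0083 for SRF and cofactors, 0.0849 for other immediate early genes, 0.11 for AP-1 responsive genes and 0.0839 for reference genes. After quantile normalization they were 0.0663 for AP-1 responsive genes and 0.28 for reference genes in BT474/Lap#3, and 0.14 for reference genes in SkBr3/Lap#6. After normexp correction the same 3 were 0.0181, 0.27 and 0.14. The cause was not tested.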

Other observations

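Heat shock genes, which also respond to handling of cells, were read on the same arrays. Of 6 above background, HSPA6 was 5.67-fold higher and HSPH1 2.61-fold lower in SkBr3/Lap#6, and 0 were called in BT474/Lap#3. Over all genes, 12.7% were higher and 13.5% lower in SkBr3/Lap#6, and 8.56% and 5.89% in BT474/Lap#3. With so few genes, the calls in this paragraph only describe the lists. The medians of the heat shock log2 fold changes were -0.17 and, over those measured on both arrays, -0.37. The median of the 8 reference genes was -0.44 in SkBr3/Lap#6 against -0.03 in BT474/Lap#3, and GUSB alone passed 2-fold, being 2.18-fold lower in SkBr3/Lap#6. Markers of endothelium were also read, and PECAM1 was at least 5.38-fold higher in SkBr3/Lap#6 and at least 2.38-fold higher in BT474/Lap#3, while KDR was not well above background on any array. CDH5 was 8.43-fold higher in SkBr3/Lap#6, with a signal of 915 beside 58.4, and was not above background in the BT474 pair. VWF went the other way in BT474/Lap#3, where it was 2.18-fold lower, and had a log2 fold change of 0.53 in SkBr3/Lap#6. Among leukocyte markers, CD3E was 2.05-fold higher in SkBr3/Lap#6 and LYZ at least 3.73-fold higher in BT474/Lap#3, while PTPRC was not well above background on any array. The summed signal of the endothelial markers was 192 in SkBr3 and 1399 in its clone, against 910 in BT474 and 665 in its clone. The part of any of these in the values of FOS or EGR1 was not tested.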
